A study of Mus musculus with 24 samples.

Results

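The alpha and beta tubulin genes were examined in CD45+ cells from EMT6-hHER2 mouse breast tumors. They were 10 genes, chosen by symbol: 4 alpha isotypes (Tuba1a, Tuba1b, Tuba1c and Tuba4a) and 6 beta isotypes (Tubb2a, Tubb2b, Tubb3, Tubb4b, Tubb5 and Tubb6). All 10 had a row among the 16996 genes of the normalized table. EMT6-hHER2 is a BALB/c mammary carcinoma line carrying human HER2, grown from 1 sorted clone, so all tumors derive from a single isolate. WT female Balb/c mice, labelled 10 to 12 weeks old, bore these tumors in the mammary fat pad and were given 1 intravenous treatment at a tumor volume of 80 mm3. The 4 groups of 6 mice received no treatment, trastuzumab at 20 mg/kg, T-DM1 at 15 mg/kg or T-PNU at 1 mg/kg. Tumors were taken on day 10, CD45+ cells were enriched on magnetic beads, and 1 RNA library was made from each mouse, named here by the code in its label, such as C1.

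Tubulin is assembled from one alpha and one beta subunit into a heterodimer, and heterodimers polymerize into microtubules, which carry the mitotic spindle, cell shape and transport. T-DM1 is trastuzumab coupled to a maytansinoid, a drug that binds tubulin and blocks its polymerization. T-PNU is the same antibody coupled to an anthracycline, a drug that acts on DNA, and trastuzumab alone is the antibody against HER2 without a drug. Cells also adjust tubulin mRNA to the pool of free heterodimers. When free tubulin rises, the factor Ttc5 recognizes the first residues of a tubulin chain as it leaves the ribosome, and Scaper and the Cnot11 subunit of the deadenylase complex bring about decay of that mRNA. The comparisons below asked how tubulin mRNA levels differed between mice given the tubulin-binding conjugate and the other groups.

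The coding starts are shown because this mRNA decay depends on the first residues, which these codons encode. Each line gives the first 30 coding bases 5′ to 3′ from the GENCODE M21 transcripts (GRCm38), with the first 4 codons in capitals.
Tuba1a: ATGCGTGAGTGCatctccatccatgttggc
Tuba1b: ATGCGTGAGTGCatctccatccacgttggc
Tuba1c: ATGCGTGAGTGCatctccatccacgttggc
Tuba4a: ATGCGCGAGTGCatttcagtccatgtgggg
Tubb2a: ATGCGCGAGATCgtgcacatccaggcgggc
Tubb2b: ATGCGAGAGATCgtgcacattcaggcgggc
Tubb3: ATGAGGGAGATCgtgcacatccaggccggc
Tubb4b: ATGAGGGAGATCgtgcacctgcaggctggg
Tubb5: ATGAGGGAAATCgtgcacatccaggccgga
Tuba1a, Tuba1b and Tuba1c carried identical first 12 bases. Tubb3 and Tubb4b shared theirs, and each of the other printed members had a base sequence of its own there. Within each family these differences are synonymous. The first 4 codons of every printed alpha member encode MREC, and those of every printed beta member MREI. Across the coding sequence, Tuba1a and Tuba1b were 98.3% identical, Tuba1b and Tuba1c 97.9%, and Tubb2a and Tubb2b 96.5%. The remaining beta pairs were 80.3% to 85.9% identical.

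Tuba1a, Tuba1b and Tuba1c lie close together on chromosome 15, at chr15:98949837-98953703 and chr15:98931425-98934565 on the minus strand and chr15:99029891-99038110 on the plus strand. Tubb2a (chr13:34074274-34078007, minus) and Tubb2b (chr13:34126748-34130466, minus) are neighbors on chromosome 13. Tuba4a lies at chr1:75214228-75219865 (minus), Tubb3 at chr8:123411424-123422015 (plus), Tubb4b at chr2:25222160-25224702 (minus) and Tubb5 at chr17:35833921-35838306 (minus). All are annotated as protein-coding genes.

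Sequence identity limits how far some members can be told apart with 81-base reads. For each gene the windows were taken from a single annotated protein-coding transcript. Of all 81-base windows of the Tuba1b transcript, 74.4% also occurred in a gene elsewhere, most often Tuba1c. The share was 55.9% for Tuba1c, 54.6% for Tuba1a, 41.8% for Tubb2a, 31.1% for Tubb2b and 35.4% for Tubb4b, whose windows recurred in its pseudogene Tubb4b-ps1. It was 0% for Tuba4a, Tubb3, Tubb5 and Tubb6. Tuba1a and Tuba1b also overlap Gm49450 on the same strand, and Tubb3 overlaps Gm20388. How reads with several matches were counted is not given in the sources used here, so the levels of the Tuba1 genes, Tubb2a, Tubb2b and Tubb4b are uncertain as to their split.

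The deposited values were log2 normalized expression, from 1.13 to 19.7 over all genes, with sample medians between 8.73 and 8.87. The depth of the libraries is unknown from these values. In these samples the 4 pan-leukocyte markers were high, with a log2 summed level of 15.8 to 16.8. Fibroblast markers were also high, with a log2 summed level of 14.7 to 17.1 over 8 genes, so mRNA of both kinds was present. In bulk samples fewer cells of a type and less RNA per cell cannot be told apart. The study's heatmaps leave out 4 samples: B1 and C1 of the untreated group, and E2 and B3 of the trastuzumab group. These were kept here, and the main counts are also given without them. They had the highest T cell marker means of their groups. On the log2 scale, relative to the mean over 24 samples, these were 1.41 (B1), 0.31 (C1), 1.25 (E2) and 0.75 (B3). The other untreated and trastuzumab samples lay at -0.10 or below. Calls with the 20 samples therefore rest in part on which control samples were left out. The sample codes ran in blocks by treatment, so any effect that follows their order cannot be told apart from treatment.

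Tubb5 was the highest tubulin isotype. It is the main beta isotype of dividing cells, and its mean log2 value of 14.9 over 24 samples exceeded 99.4% of all genes. Tubb6, Tubb4b, Tuba1c and Tuba4a followed, above 93.9% to 95.3% of genes. Tubb2b, known best from neurons, had a mean log2 value of 9.69. Tubb3, the class III isotype of neurons, was lowest at 6.80, below most genes of the table.

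On a scale divided by exon length (log2 per kb), which allows levels to be compared between genes, Tubb5 was at 13.2 ± 0.30 (SD, n = 24). Next came Tubb4b at 11.8 ± 0.16, Tubb6 at 11.7 ± 0.30 and Tuba1c at 11.6 ± 0.22, which did not differ beyond their spread. Tubb2a at 11.3 ± 0.19, Tuba1b at 11.3 ± 0.19 and Tuba1a at 11.2 ± 0.31 formed a further step of overlapping levels. Tuba4a was at 10.8 ± 0.25, Tubb2b at 8.50 ± 0.45 and Tubb3 at 5.90 ± 0.47, each separated from its neighbors by more than 1 SD. These levels rest on the length of all annotated exons of a gene and on an unnamed log2 transformation. They describe order on this scale rather than molecule counts, and the order can change with the length used. For Tuba4a the exon length was 3701 bases, while its transcript searched above held 2760 windows of 81 bases. Its place below Tuba1a is therefore uncertain.

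**Figure D1:**
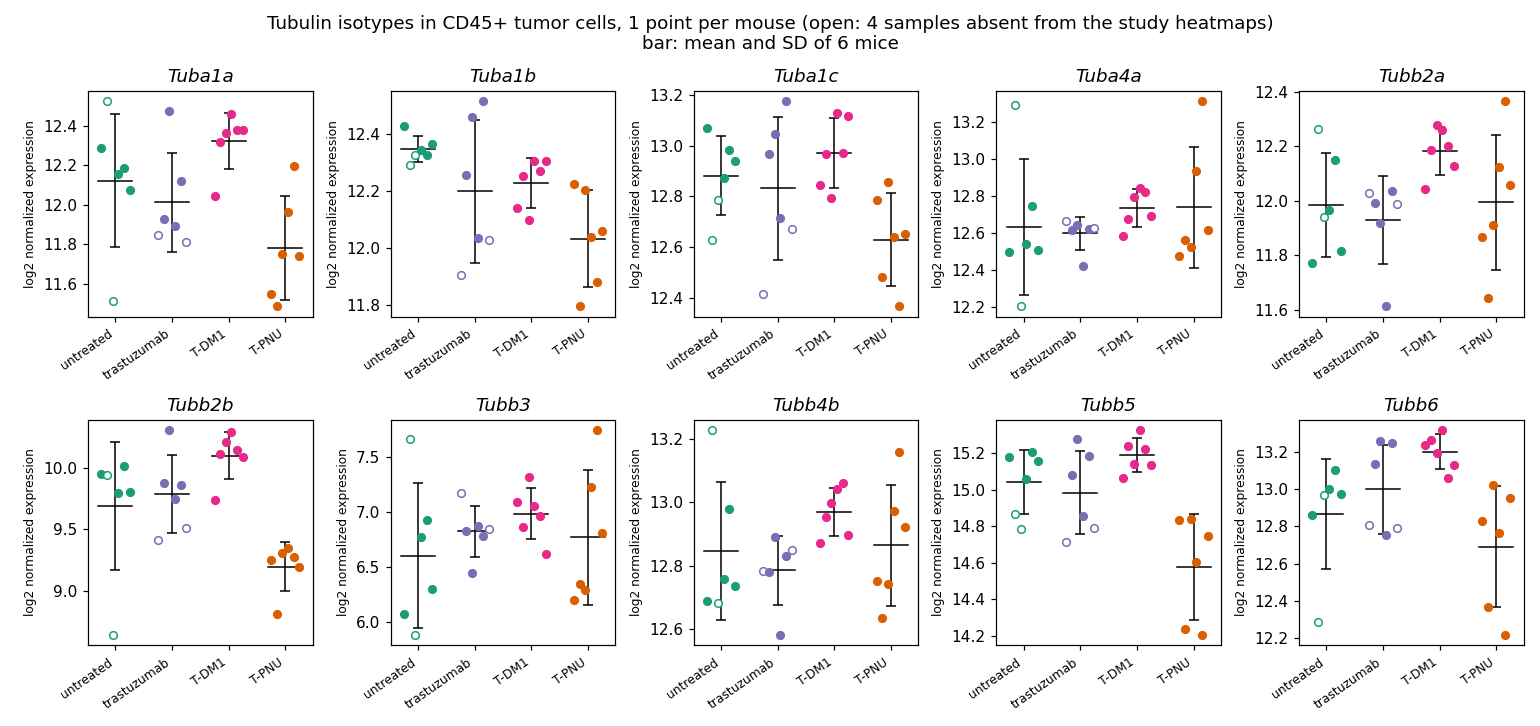
Log2 normalized expression (vertical axis) of each tubulin isotype by group, with 1 point per mouse and the mean and SD of 6 mice; open points are the 4 samples absent from the study's heatmaps. For Tubb5 the T-DM1 points lie at 15.1 to 15.3 and the T-PNU points at 14.2 to 14.8.

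No tubulin isotype passed the test between T-DM1 and untreated mice. With limma across all genes and Benjamini-Hochberg adjustment, 0 of 10 members passed an adjusted p of 0.05, where 6.27% of all genes did, and 2 of 10 had an unadjusted p under 0.05. Estimates were positive for 9 of 10 members, with a median log2 difference of 0.17, against -0.02 over all genes. Both groups had 6 mice.

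Tubb2b had the largest estimate. Its log2 values were 8.64 at the lowest, 9.87 at the median and 10.0 at the highest in untreated mice, and 9.74, 10.1 and 10.3 with T-DM1. Of the T-DM1 samples, 5 of 6 lay above every untreated sample, and the groups overlapped through T-DM1 C3. The log2 difference was 0.41 ± 0.18 (SE; 95% interval 0.03 to 0.79), with an adjusted p of 0.179 by limma.

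Tubb6, a widely expressed beta isotype, ran from 12.3 through a median of 13.0 to 13.1 in untreated mice and from 13.1 through 13.2 to 13.3 with T-DM1. Again 5 of 6 T-DM1 samples exceeded every untreated sample. Its log2 difference was 0.33 ± 0.14 (SE), with an adjusted p of 0.152 by limma. Untreated B1, at 12.3, stood below the other untreated samples, and without it the difference was 0.22.

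Tubb3 had a log2 difference of 0.38 ± 0.26 (SE), but its untreated values spread from 5.88 to 7.67 and enclosed all T-DM1 values. Tubb5, the highest isotype, differed by 0.15 (95% interval -0.10 to 0.40). Tuba1b, a widely expressed alpha isotype, was the member with a negative estimate, -0.12 (95% interval -0.31 to 0.07). The intervals of Tubb5 and Tuba1b hold changes of up to about 0.40 and 0.31 in size, so small differences were not detectable here.

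The log2 difference of Tubb2b was 0.20 when untreated C1 was left out. Without the 4 samples absent from the heatmaps, 0 of 10 members passed by limma, where 2.01% of all genes did, and 1 had an unadjusted p under 0.05. In that set the log2 differences were 0.21 for Tubb2b, 0.22 for Tubb6, 0.04 for Tubb5 and 0.004 for Tuba1c. With the samples weighted by their quality in limma, 2 of 10 members passed, where 19.4% of all genes did. These were Tubb2a and Tubb4b, both higher with T-DM1 (adjusted p of 0.0203 and 0.0419).

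Against trastuzumab, the antibody without its drug, 0 of 10 members passed, where 0.647% of all genes did (limma, 6 mice in each group), and 2 of 10 had an unadjusted p under 0.05. All 10 estimates were positive, with a median log2 difference of 0.19. Tuba1a, an alpha isotype of developing neurons, ran from 11.8 through a median of 11.9 to 12.5 with trastuzumab and from 12.0 through 12.4 to 12.5 with T-DM1, and the groups overlapped. Its log2 difference was 0.31 ± 0.14 (SE), with an adjusted p of 0.297 by limma.

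Tubb2a, a beta isotype abundant in brain, was 11.6 to 12.0 with trastuzumab and 12.0 to 12.3 with T-DM1. All 6 T-DM1 samples lay above all trastuzumab samples, a separation seen for 2.50% of all genes. The log2 difference was 0.25 ± 0.10 (SE; 95% interval 0.04 to 0.47), with an adjusted p of 0.233 by limma. With sample weights Tubb2a was the 1 of 10 members that passed (adjusted p of 0.048 by limma), where 7.25% of all genes did. The log2 difference was 0.20 for Tubb5 (95% interval -0.04 to 0.45) and 0.03 for Tuba1b (-0.16 to 0.22). With the 20 samples of the heatmaps 0 of 10 members passed by limma, where 0.812% of all genes did. In that set 2 of 10 members had an unadjusted p under 0.05, and 8 of 10 estimates were positive.

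**Figure D2:**
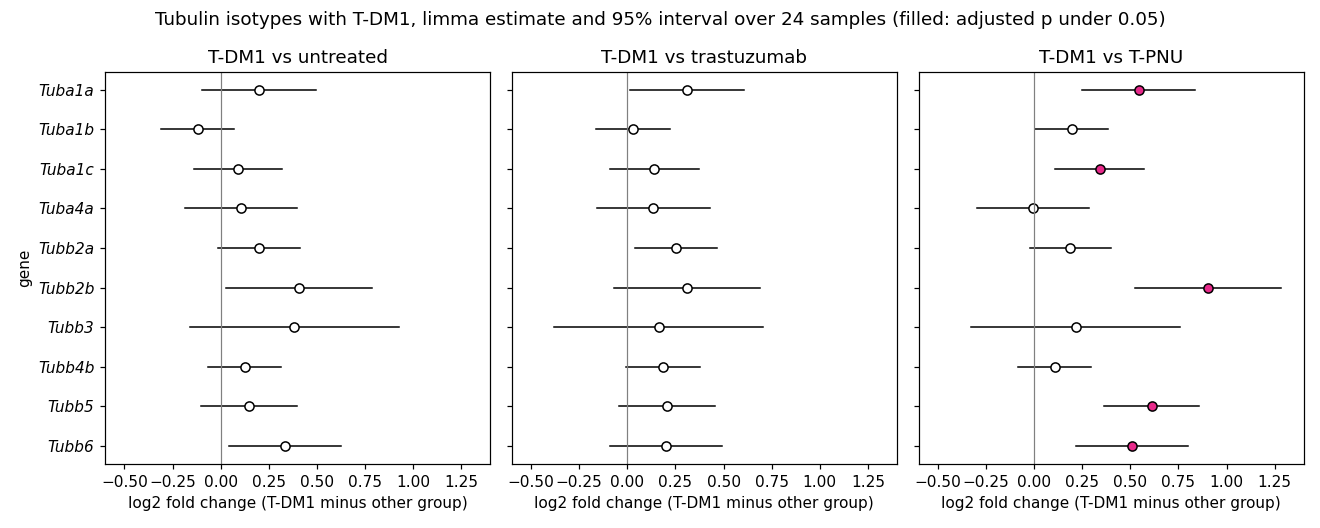
Log2 fold change of each isotype (horizontal axis; T-DM1 minus the other group) with its 95% limma interval over 24 samples, in 3 panels by comparison group; filled points passed an adjusted p of 0.05. Filled points appear in the panel against T-PNU alone, for Tubb2b, Tubb5, Tuba1a, Tubb6 and Tuba1c.

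The conjugates differed from each other. T-DM1 exceeded T-PNU in 5 of 10 members, Tubb2b, Tubb5, Tuba1a, Tubb6 and Tuba1c, and no member was lower. Over all genes, 29.8% passed the same threshold in either direction and 17.4% were higher with T-DM1. The median log2 difference was 0.28 over the 10 members and -0.03 over all genes. Doses differed between the conjugates, 15 and 1 mg/kg, so the comparison is of these treatments as given. Per the study, T-PNU tumors had shrunk by the harvest, while T-DM1 did not prevent tumor growth. Tumor size and response therefore cannot be told apart from treatment in this comparison.

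Tubb2b showed the widest gap. Its log2 values with T-PNU were 8.81 at the lowest, 9.26 at the median and 9.35 at the highest, and with T-DM1 9.74, 10.1 and 10.3. Every T-DM1 sample lay above every T-PNU sample. Its log2 difference was 0.90 ± 0.18 (SE; 1.87-fold), with an adjusted p of 0.00235 by limma.

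Tubb5 ran from 14.2 through a median of 14.7 to 14.8 with T-PNU and from 15.1 through 15.2 to 15.3 with T-DM1. The groups did not overlap, and T-PNU H1 and C2 were the lowest samples of all. The log2 difference was 0.61 ± 0.12 (SE; 1.53-fold), with an adjusted p of 0.00209 by limma. The T-DM1 samples were close together, with an SD of 0.09 against 0.29 with T-PNU.

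Tubb6 was 12.2, 12.8 and 13.0 at the lowest, median and highest with T-PNU and 13.1, 13.2 and 13.3 with T-DM1. It was the third member without overlap between the groups, so 3 of 10 members separated fully, where 13.2% of all genes did. The log2 difference was 0.51 ± 0.14 (SE; 1.42-fold; adjusted p of 0.0112 by limma).

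Among the alpha isotypes, Tuba1a ran from 11.5 through 11.7 to 12.2 with T-PNU and from 12.0 through 12.4 to 12.5 with T-DM1. T-PNU C2 was the 1 sample that reached into the T-DM1 range. Tuba1a differed by 0.54 ± 0.14 on the log2 scale (SE; 1.46-fold; adjusted p of 0.00842 by limma). Tuba1c, the third of the near-identical alpha genes, was 12.4 to 12.9 with T-PNU and 12.8 to 13.1 with T-DM1, with 4 of 6 T-DM1 samples above every T-PNU sample. Its log2 difference was 0.34 ± 0.11 (SE; adjusted p of 0.0261 by limma). The call for Tuba1c was lost when any of T-PNU H1, T-PNU C2, T-DM1 F3 or T-DM1 H3 was left out, with adjusted p of up to 0.07.

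The remaining 5 members did not pass. Tuba1b had a log2 difference of 0.20 (95% interval 0.005 to 0.39; adjusted p of 0.108 by limma), Tubb2a one of 0.19 (-0.02 to 0.40), Tubb3 one of 0.22 (-0.33 to 0.76) and Tubb4b one of 0.11 (-0.08 to 0.30). Tuba4a, known from platelets and muscle, had an estimate of -0.004 (-0.29 to 0.29). T-PNU B2 and C2 were the 2 highest T-PNU samples for Tuba4a, Tubb3 and Tubb4b, and both lay above every T-DM1 sample for Tuba4a.

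Markers of other cell types and of division moved with this contrast. Of 8 fibroblast and mesenchymal markers, 6 were higher with T-DM1, led by Col1a1 (log2 difference 1.62), Pdgfrb (1.57) and Col3a1 (1.38). The other 2 had negative estimates, the lowest at -0.77, and did not pass by limma. The log2 summed level of that list was 16.5 to 17.1 with T-DM1 and 14.7 to 16.0 with T-PNU, with no list gene at 0. Of 4 pan-leukocyte markers 3 were lower with T-DM1, among them Ptprc, which encodes CD45 (-0.76), and the summed level was 15.8 to 16.2 against 16.1 to 16.8. Of 14 proliferation markers 2 were higher, Plk1 and Cdc20, with a list median of 0.31 and summed levels of 14.7 to 15.0 against 14.1 to 15.1. All 4 NK cell and 4 of 8 macrophage markers were lower, while 3 of 4 platelet markers were higher. Of the others, 3 of 5 endothelial, 2 of 7 dendritic cell and 2 of 8 neutrophil markers were lower. Of 7 epithelial and tumor cell markers 3 were lower, among them Krt5 (-1.48) and Krt14 (-1.02), and 1 was higher (Krt8, 0.96). T cell and B cell markers had medians of -0.911 and -1.002 with 0 of 8 and 0 of 6 passing by limma, and 3 and 0 at an unadjusted p under 0.05. The part of these shifts in the tubulin differences was not tested.

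T-PNU against untreated gave 0 of 10 members past the threshold with all 24 samples, where 0.188% of all genes passed (limma, 6 mice in each group), and 5 of 10 had an unadjusted p under 0.05. Of the estimates, 6 of 10 were negative. Tubb5 was 14.8, 15.1 and 15.2 at the lowest, median and highest in untreated mice and 14.2, 14.7 and 14.8 with T-PNU, and the groups overlapped slightly. Its log2 difference was -0.46 ± 0.12 (SE; adjusted p of 0.0638 by limma). Tubb2b differed by -0.49 ± 0.18 (adjusted p of 0.113) and Tuba1a by -0.34 ± 0.14 (adjusted p of 0.149).

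Tuba1b separated the groups without reaching the threshold. Its values were 12.3 to 12.4 in untreated mice and 11.8 to 12.2 with T-PNU, so all 6 T-PNU samples were below all untreated samples, a separation seen for 1.01% of all genes. The log2 difference was -0.31 ± 0.09 (SE; adjusted p of 0.0736 by limma). Tubb2a (0.01), Tubb4b (0.02), Tuba4a (0.11) and Tubb3 (0.17) had estimates at or above 0.

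Without the 4 samples absent from the heatmaps, 5 of 10 members were lower with T-PNU than in the 4 remaining untreated mice. They were Tubb2b (log2 difference -0.69), Tubb5 (-0.57), Tuba1a (-0.39), Tuba1c (-0.34) and Tuba1b (-0.33), with adjusted p of 0.00252 to 0.0268 by limma. In that set 31.1% of all genes passed and 15.7% were lower with T-PNU. Leaving out untreated C1 alone gave 4 members, Tubb2b, Tubb5, Tuba1a and Tuba1b, where 17.2% of all genes passed. Untreated C1 was the lowest untreated sample for Tubb2b (8.64), Tuba1a (11.5) and Tubb5 (14.8). Leaving out T-PNU G1 gave 2 members, where 5.94% of all genes passed. Leaving out T-PNU A2 or trastuzumab E2 gave 1 member each, where 1.42% and 1.62% of all genes passed. T-PNU G1 and A2 had the lowest T cell marker means of their group, -0.40 and -0.27, against 0.825 or above in the rest. The study separates high-responding from low-responding T-PNU samples, a split that was not used here.

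T-PNU against trastuzumab gave 0 of 10 members with all samples by limma, where 0.00588% of all genes passed, and 3 of 10 had an unadjusted p under 0.05. Tubb2b was 9.41 to 10.3 with trastuzumab and 8.81 to 9.35 with T-PNU and separated fully, as 1.31% of all genes did. Its log2 difference was -0.59 ± 0.18 (SE; adjusted p of 0.156 by limma). With the 20 samples, 5 of 10 members were lower with T-PNU, Tubb2b (-0.75), Tubb5 (-0.52), Tubb6 (-0.41), Tuba1c (-0.35) and Tuba1b (-0.28), where 28.0% of all genes passed and 13.5% were lower. Leaving out untreated C1, which enters the shared estimate of spread, gave 1 member, where 0.477% of all genes passed. The T-DM1 against T-PNU contrast shares the T-PNU samples with both of these comparisons, and in the 20-sample fit it kept 5 members, where 39.9% of all genes passed.

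**Figure D3:**
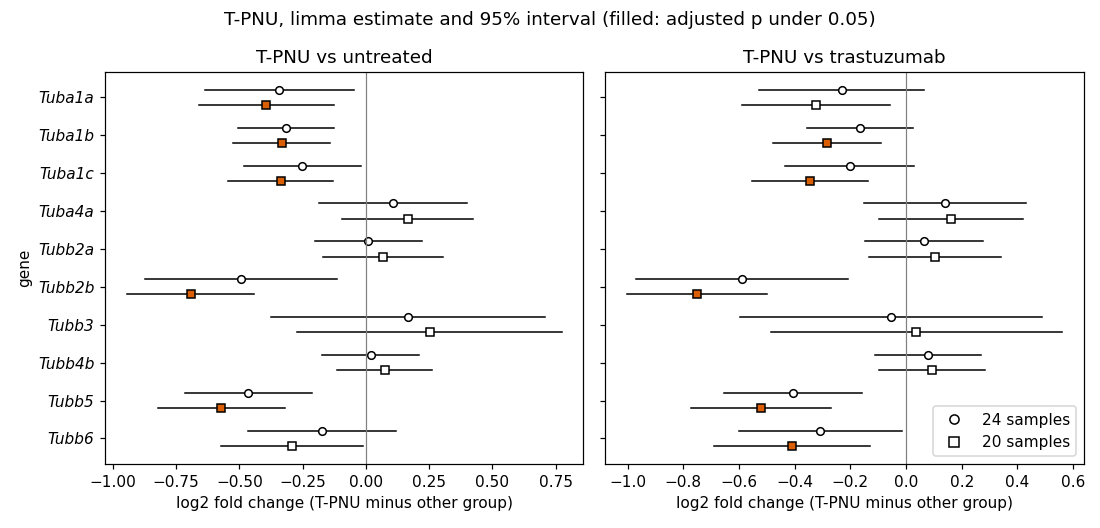
Log2 fold change of each isotype (horizontal axis; T-PNU minus the other group) with its 95% limma interval, for all 24 samples (circles) and for the 20 samples of the heatmaps (squares); filled points passed an adjusted p of 0.05. In the panel against untreated, Tubb2b moves from -0.49 to -0.69 and Tubb5 from -0.46 to -0.57 between the sets, and only squares are filled.

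Markers of division and of several cell types moved beside these contrasts. For T-PNU against untreated with all 24 samples, all 14 proliferation markers had negative estimates, with a median of -0.50. By limma 0 passed, and 13 had an unadjusted p under 0.05. The 8 T cell and 6 B cell markers had medians of 0.96 and 1.08. None of them passed by limma, and 2 T cell and 0 B cell markers had an unadjusted p under 0.05. In that fit 1 of 4 pan-leukocyte, 1 of 7 epithelial and 1 of 3 neural markers were higher, while 0 of 4 NK cell and 0 of 8 fibroblast markers passed by limma and 4 and 6 had an unadjusted p under 0.05. The 20 samples lack the controls with the highest T cell marker means, so T cell calls among them partly follow from that choice. With the 20 samples, all 14 proliferation markers were lower and all 8 T cell markers higher with T-PNU than in untreated mice by limma. All 4 NK cell, 3 of 4 pan-leukocyte, 4 of 7 dendritic cell, 4 of 8 neutrophil, 4 of 7 epithelial and 3 of 5 endothelial markers were also higher, and 4 of 8 fibroblast markers lower and 1 higher. Against trastuzumab, 8 of 14 proliferation markers were lower, and 5 of 8 T cell and 2 of 6 B cell markers were higher in that set, with 5 of 8 fibroblast markers lower. Their part in the tubulin estimates was not tested.

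Between trastuzumab and untreated mice 0 of 10 members passed by limma, where 0.259% of all genes did, and 0 of 10 had an unadjusted p under 0.05. Estimates ran from -0.15 for Tuba1b to 0.22 for Tubb3. Over the 4 groups together, the limma F test called 3 of 10 members, Tubb5 (adjusted p of 0.0111), Tubb2b (0.0148) and Tuba1a (0.0461), where 18.8% of all genes passed. Tubb6 had an adjusted p of 0.0554.

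The makeup of the beta pool is described by the share of each isotype in the summed beta level per kb. Tubb5 made up 51.3% ± 3.42 (SD, n = 6) in untreated mice, 50.3% ± 2.55 with trastuzumab, 50.1% ± 0.98 with T-DM1 and 44.4% ± 4.73 with T-PNU. The T-PNU shares reached from 36.2% to 49.6% and overlapped the others. Tubb4b, found in most tissues and in cilia, made up 21.7% ± 3.62 with T-PNU, 17.5% ± 1.69 with trastuzumab and 17.2% ± 0.57 with T-DM1, and lay between 15.8% and 23.9% in untreated mice. Tubb2a was 15.5% ± 2.89 with T-PNU against 12.6% to 12.9%. Tubb2b made up 1.54% ± 0.12 with T-PNU and 2.14% ± 0.19 with T-DM1. Its T-PNU shares reached at most 1.72% and its T-DM1 shares were 1.78% to 2.32%, so these groups did not overlap. Tubb3 was under 1% in every sample.

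Of the summed alpha level per kb, Tuba1c held the largest share in each group mean, 31.5% to 33.0%. Tuba4a was 21.1% ± 4.18 (SD, n = 6) with T-PNU and 16.8% to 17.5% in the other group means. Tuba1a was 26.5% ± 1.30 with T-DM1 and 22.1% ± 2.85 with T-PNU. These shares are descriptions and were given no test.

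**Figure D4:**
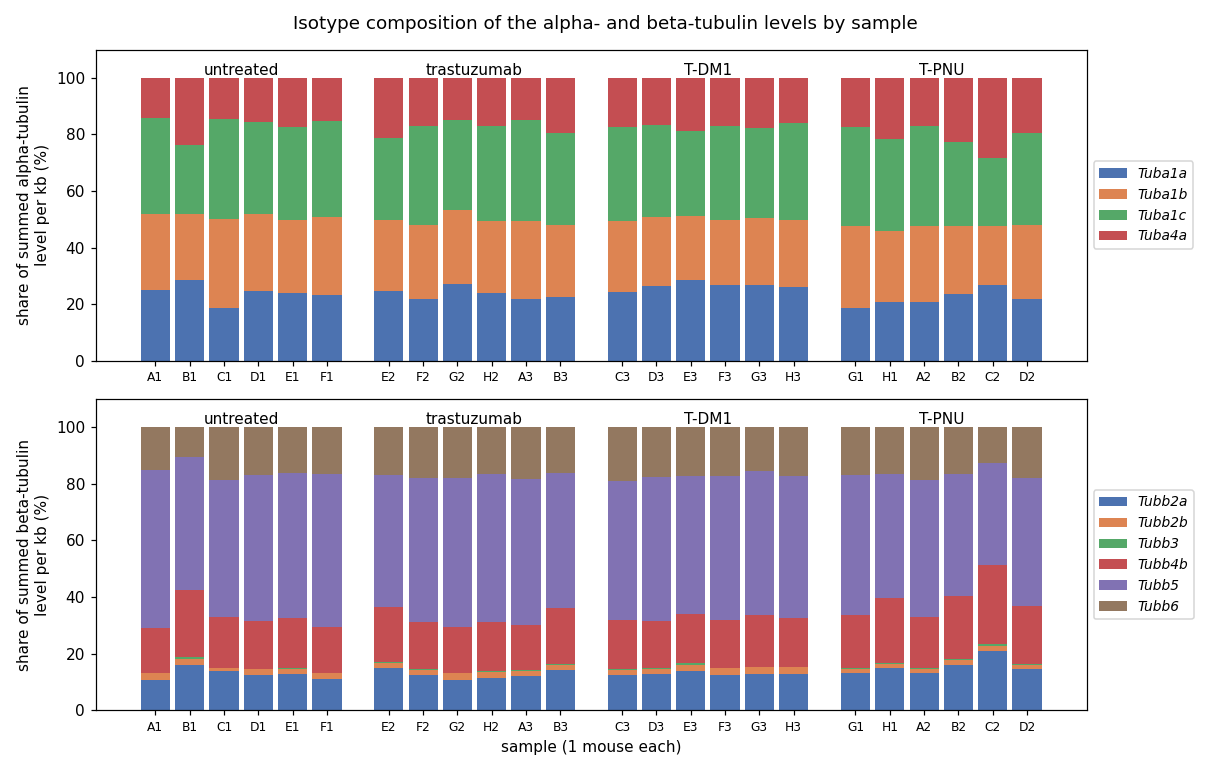
Share of each isotype in the summed alpha (upper) or beta (lower) tubulin level per kb, in percent, as 1 stacked bar per sample grouped by treatment. Tubb5 is at 36.2% in T-PNU C2, the lowest of the 24 samples, where Tubb4b and Tubb2a take larger shares.

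Across the 24 samples the members fell into partly overlapping blocks. Tubb5, Tuba1c, Tuba1b and Tubb6 varied together: Tubb5 with Tuba1c had a Pearson r of 0.89 and Spearman rho of 0.89, and Tubb5 with Tubb6 had r 0.83 and rho 0.80. Tubb2a, Tubb4b, Tuba4a and Tubb3 formed another block, with Tubb2a and Tubb4b at r 0.92 and rho 0.94, and Tuba4a and Tubb4b at r 0.89 and rho 0.93. Tuba1a and Tubb2b were correlated at r 0.89 and rho 0.88. Tubb2b was also close to the first block, with r 0.82 and rho 0.89 for Tubb5 and r 0.66 and rho 0.71 for Tuba1c. Inside the first block, Tuba1b with Tubb6 had r 0.59 and rho 0.55, so the blocks are not sharply apart. Between the first blocks the values were lower and depended on few samples. Tubb5 with Tubb4b had r 0.08 and rho 0.24, and r 0.48 without the 2 samples farthest from the median. Tubb6 with Tuba4a had r -0.43 and rho 0.09, and r 0.27 without the 2 farthest samples, and Tubb6 with Tubb4b went from r -0.10 (rho 0.19) to 0.59. Within groups, after removing group means, the values were 0.86 for Tubb5 with Tuba1c, 0.91 for Tubb2a with Tubb4b and 0.84 for Tuba1a with Tubb2b. These are descriptions over 24 libraries that share their normalization, and the reads of the near-identical genes are partly shared.

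**Figure D5:**
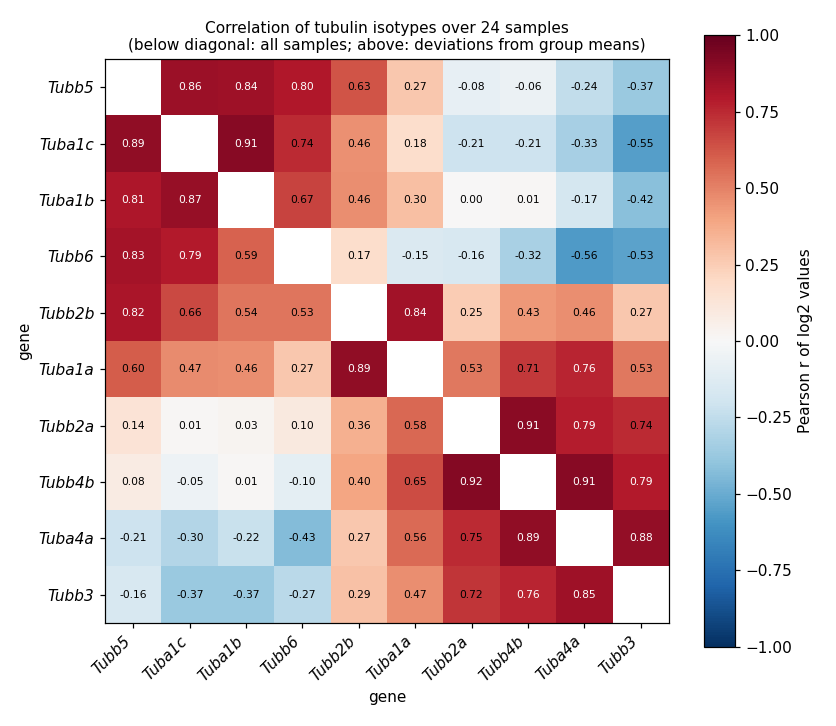
Pearson r of log2 values for each pair of isotypes over 24 samples (color scale from -1 to 1), with all samples below the diagonal and deviations from group means above it. Tubb5, Tuba1c, Tuba1b and Tubb6 form one positive block and Tubb2a, Tubb4b, Tuba4a and Tubb3 another.

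Some members of the blocks also tracked different marker lists. Tubb5 had an r of 0.83 (rho 0.73) with the mean of the 14 proliferation markers over 24 samples, 0.90 within groups, and 0.75 (rho 0.68) with the fibroblast markers. With the pan-leukocyte markers its r was -0.86 (rho -0.83), and with the T cell markers -0.73 (rho -0.73). Tuba1c showed the same signs, at 0.83 with proliferation and -0.86 with T cell markers. Tubb3 went the other way, at -0.54 with proliferation and 0.62 with T cell markers, and Tuba4a was at -0.49 (rho -0.35) and 0.51 (rho 0.32). Tubb2a and Tubb4b, of the same block, had smaller r, at -0.32 and -0.31 with proliferation and 0.35 and 0.38 with T cell markers. Tuba4a and Tubb4b had negative values with macrophage markers (r -0.72 and -0.71), as did Tuba1a (r -0.70). Without the 2 samples farthest from the median of the list, Tubb5 with proliferation had r 0.68 and Tubb3 with T cell markers 0.44. Tubb6 with proliferation then went from r 0.62 to 0.29, and Tubb2a and Tubb4b with T cell markers had r 0.13 and 0.09. For Tuba4a the values were then -0.29 with proliferation and 0.17 with T cell markers, so its relation to T cell markers rested on those samples.

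The genes most like the members were sought by Pearson r over 24 samples among 8417 genes with a mean above the median. Tubb5 was closest to Cdk4 (r 0.99), the cyclin-dependent kinase of the G1 phase, Ppp1r14b (r 0.98) and Idh2 (r 0.98), and 449 genes exceeded an r of 0.9. Tuba1c was closest to S100a10 (r 0.97), and 103 genes exceeded 0.9. Tubb6 was closest to Aldoa (r 0.96), a glycolytic aldolase, and Tuba1b to Gtf2h5 (r 0.95). Tuba4a was closest to Prdx6 (r 0.95). Tubb2a and Tubb4b had each other as the nearest gene (r 0.92). Tuba1a had only 2 genes above 0.9, led by Yaf2 (r 0.92), and Tubb3 was closest to Pim3 (r 0.92).

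The promoters of Tubb5 and Tubb4b are shown because these genes led separate blocks. Each is 300 bases, 250 before and 50 after the RefSeq gene start (GRCm38.p6, 5′ to 3′ on the gene's minus strand), at chr17:35838252-35838551 for Tubb5 and chr2:25224653-25224952 for Tubb4b. Capitals mark CCAAT and TTTGAA, each searched on both strands; the matches did not overlap.
Tubb5: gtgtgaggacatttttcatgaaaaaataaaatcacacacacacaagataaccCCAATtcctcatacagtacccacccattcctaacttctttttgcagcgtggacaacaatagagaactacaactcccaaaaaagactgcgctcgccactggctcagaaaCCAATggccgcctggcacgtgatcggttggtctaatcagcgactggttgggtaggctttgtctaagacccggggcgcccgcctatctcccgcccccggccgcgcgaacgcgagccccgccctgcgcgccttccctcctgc
Tubb4b: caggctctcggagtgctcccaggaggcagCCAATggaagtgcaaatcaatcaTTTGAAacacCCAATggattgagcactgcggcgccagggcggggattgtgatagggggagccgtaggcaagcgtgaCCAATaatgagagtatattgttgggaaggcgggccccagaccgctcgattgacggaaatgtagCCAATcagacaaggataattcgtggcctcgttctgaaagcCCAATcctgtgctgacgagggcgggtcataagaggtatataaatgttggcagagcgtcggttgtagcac
Tubb5 held 2 CCAAT matches and Tubb4b held 5, with 1 TTTGAA match in Tubb4b. The table matched 8 of 10 members, of which 5 held CCAAT, against 37.4% of 32851 promoters of the same length. TTTGAA occurred in 1 of 8, against 17.9% of promoters. GGGCGG occurred in 7 of 8, against 35.7%, and TATAAA in 2 of 8, against 13.6%. A match is a description of letters and not of a bound site.

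The autoregulation factors did not pass in any of the 6 comparisons by limma with all 24 samples, and 0 to 2 of 3 had an unadjusted p under 0.05. For T-DM1 against untreated, Ttc5 differed by -0.09 ± 0.07 on the log2 scale (SE), Scaper by -0.19 ± 0.08 and Cnot11 by -0.13 ± 0.10, with adjusted p of 0.143 to 0.471 by limma. Against T-PNU, Cnot11 was the nearest to the threshold, at -0.24 ± 0.10 (adjusted p of 0.0668 by limma), and with the 20 samples it was lower with T-DM1 (adjusted p of 0.0248). Of the other tubulin genes, 5 of 8 were measured. By limma 0 passed between T-DM1 and untreated or T-PNU, and 0 had an unadjusted p under 0.05. In the 20-sample fit 1 of these 5 was lower with T-DM1 than with T-PNU.

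Genes that fold, nucleate and modify tubulin were followed by list. Against untreated 6.27% of all genes passed with 24 samples and 2.01% with the 20 samples of the heatmaps. Of 13 measured subunits of prefoldin and the CCT chaperonin, which fold tubulin chains, 6 were higher with T-DM1 than with T-PNU and 0 lower, led by Cct5 (log2 difference 0.44) and Cct7 (0.34). Against untreated, 0 of 13 passed by limma and 0 had an unadjusted p under 0.05. Of 7 tubulin folding cofactors, 3 were higher and 2 lower than with T-PNU, with Arl2 at 0.64, Tbcc at 0.30 and Tbcel at -0.76. Against untreated, 1 was lower, Tbce, the cofactor that helps to join the heterodimer (-0.21, adjusted p of 0.0372 by limma), and that call was lost with the 20 samples (adjusted p of 0.112).

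Of 10 gamma-tubulin complex genes, which nucleate microtubules, 3 were higher and 1 lower than with T-PNU, including Tubg2 (0.47), Tubg1 (0.30) and Tubgcp5 (-0.31). Against untreated, Nedd1 was lower (-0.26), but not with the 20 samples (adjusted p of 0.0668 by limma). Of 17 measured genes for enzymes that modify tubulin tails, 7 were higher than with T-PNU and 0 lower, led by the glutamylase Ttll11 (0.88), the carboxypeptidase Vash2 (0.77) and the deglutamylase Agbl5 (0.68). Against untreated 2 of 17 were higher, Agbl5 (0.45) and Ttll12 (0.42), and both calls were lost with the 20 samples (adjusted p of 0.228 and 0.144 by limma). Against T-PNU, 29.8% of all genes passed in either direction, so the list counts stand beside a high background. In the 20-sample fit, 8 of 13 folding subunits and 9 of 17 tail enzymes were higher than with T-PNU, where 39.9% of all genes passed.

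Of 19 measured genes of microtubule dynamics and severing, 2 were higher and 1 lower with T-DM1 than in untreated mice, and 3 were higher and 4 lower than with T-PNU. Map1s, a microtubule-associated protein, rose by 0.89 ± 0.18 on the log2 scale (SE; 1.86-fold; adjusted p of 0.00766 by limma), and Mapre3, a plus-end binding protein, by 0.51 ± 0.13. Clasp2, which stabilizes plus ends, fell by 0.30. Of these 3, Map1s alone passed with the 20 samples (0.79, adjusted p of 0.0471 by limma), with Mapre3 and Clasp2 at adjusted p of 0.0946 and 0.0956. Map1s (0.66) and Mapre3 (0.48) were also higher than with T-PNU, a comparison that shares the T-DM1 samples. Stmn2 was lower than with T-PNU (-0.55, adjusted p of 0.00585 by limma). Against trastuzumab, Mapre2 was lower (-0.40, adjusted p of 0.0232 by limma) and no other gene of these tubulin and microtubule lists passed. Among cell type markers, 1 of 8 macrophage markers, C1qb (-0.88), and 1 of 7 dendritic cell markers, Xcr1 (-1.42), were lower than with trastuzumab. Beside these, 1 of 14 proliferation markers, Mki67 (-0.59), and 1 of 8 macrophage markers, C1qb (-0.75), were lower with T-DM1 than in untreated mice. Mmp9 (1.10), 1 of 8 neutrophil markers, and Alas2 (0.92), 1 of 3 red blood cell markers, were higher. So were 3 of 8 fibroblast markers, Col1a1 (1.32), Dcn (1.10) and Col3a1 (0.91). Estimates were negative for 12 of 14 proliferation, 6 of 8 macrophage and 6 of 8 neutrophil markers. They were positive for all 3 red blood cell and all 8 fibroblast markers. Of the markers named for this comparison, Alas2, Col1a1 and Col3a1 did not pass with the 20 samples. Their part in the tubulin pathway differences was not tested.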

How the data were processed

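RNA of CD45+ cells from 24 tumors was sequenced as single reads of 81 bases from stranded mRNA libraries. Per the labels and the study's methods, the authors aligned reads to mm10 with STAR 2.4.2a, counted them by strand with featureCounts (Subread 1.5.0), removed genes averaging under 5 counts and used DESeq2. The deposited values are log2 normalized expression for 16996 genes. The transformation is not given in the sources used here, and the depth per sample is unknown from these values. Because counts were not used here, limma 3.58.1 in R 4.3.3 was fitted to all genes and all 24 samples (4 groups in 1 fit, 20 residual degrees of freedom, empirical Bayes with a mean trend), with Benjamini-Hochberg adjustment over all genes and a threshold of 0.05, two-sided. The script was tested on simulated data. P-values measure the spread between mice.

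The 10 members and the gene lists were chosen with earlier results of these data known. All members were named, and from each other list at most 3 genes per T-DM1 comparison, by absolute log2 difference among those that passed, plus the autoregulation genes. Exon lengths, coding starts and shared 81-base windows came from GENCODE M21 (GRCm38), promoters from RefSeq (GRCm38.p6). Alternatives were the 20 samples of the study's heatmaps, quantile normalization, a filter on genes above the median, 2-group fits, sample weights, no variance trend, a stricter threshold and leaving out each sample. Figures were drawn with matplotlib 3.10.9. No protein sequences were used here, and no Tubb6 sequence and no nearest gene of Tubb2b are reported.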

Additional observations from a re-analysis of the deposited data

Results flagged for a closer look

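Each of the 40 sets of 6 samples (10 members in 4 groups) was searched for a highest or lowest sample set far from the rest, by the gap to its nearest neighbor over the range of the group (Dixon's 95% limit). The rule picked out 8 sets, and chance alone picks about 1 in 20. All 8 were low samples.

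Trastuzumab H2 was lowest for Tuba4a (log2 value 12.4225), Tubb2a (11.613) and Tubb4b (12.582), 3 members that varied together over the 24 samples. T-DM1 C3 was lowest for Tuba1a (12.0462) and Tubb2b (9.741). Untreated C1 was lowest for Tubb2b (8.6411), where the other 5 untreated samples lay between 9.79 and 10.0. T-PNU H1 was also lowest for Tubb2b (8.8099). Untreated B1 was lowest for Tubb6 (12.2859), where the others lay between 12.9 and 13.1.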

How the results depend on the processing

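The values carry no depth, so precision rests on the spread between 6 mice. With the 20 samples of the heatmaps, the members called numbered 5 for T-PNU against untreated, 5 for T-PNU against trastuzumab and 6 across the 4 groups, where 31.1%, 28.0% and 40.8% of all genes passed. With sample weights they were 2 for T-DM1 against untreated, 1 for T-DM1 against trastuzumab, 5 for T-PNU against untreated, 2 for T-PNU against trastuzumab and 8 across the groups, where 19.4%, 7.25%, 34.3%, 13.3% and 50.9% of all genes passed. The stricter threshold (adjusted p of 0.01 and a doubling) left 0 members for T-DM1 against T-PNU, where 325 of all 16996 genes passed it. Leaving out each sample in turn gave 0 to 4 members for T-PNU against untreated, where 0.00% to 17.2% of all genes passed. For T-PNU against trastuzumab it gave 0 to 1, where 0.00% to 0.477% of all genes passed. For T-DM1 against T-PNU it gave 4 to 5, where 18.5% to 34.6% of all genes passed. Across the 4 groups it gave 2 to 4, where 8.45% to 28.1% of all genes passed. Quantile normalization, the filter on genes above the median, 2-group fits and the fit without a variance trend left these counts of members called within 1.5 times. The filter removed Tubb3, which then had no value. The cause of these changes was not tested. No paired analysis was possible because the samples carry codes and no shared replicate numbers.

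Signs changed in 44 single values, none of them called. With 20 samples the log2 differences were -0.088 for Tuba1b and -0.0052 for Tuba1c (T-DM1 against trastuzumab), 0.037 for Tubb3 (T-PNU against trastuzumab), and 0.0088 for Tuba1c and 0.0034 for Tuba4a (trastuzumab against untreated). With quantile normalization they were 0.039 for Tuba4a (T-DM1 against T-PNU), and -0.0085 for Tubb2a and -0.012 for Tubb4b (T-PNU against untreated). With sample weights they were -0.011 for Tuba1b (T-DM1 against trastuzumab), 0.031 for Tuba4a (T-DM1 against T-PNU) and 0.022 for Tuba4a (trastuzumab against untreated).

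Leaving out 1 sample at a time changed the sign of 13 estimates. For T-PNU against untreated the log2 differences ranged from -0.0076 to 0.24 (Tuba4a), -0.064 to 0.080 (Tubb2a), -0.029 to 0.38 (Tubb3) and -0.041 to 0.095 (Tubb4b). For trastuzumab against untreated they ranged from -0.12 to 0.034 (Tuba1c), -0.12 to 0.10 (Tuba4a), -0.097 to 0.0086 (Tubb2a), -0.11 to 0.17 (Tubb2b) and -0.093 to 0.016 (Tubb4b). For T-PNU against trastuzumab they ranged from -0.0093 to 0.13 (Tubb2a) and -0.25 to 0.059 (Tubb3). Tuba4a ranged from -0.056 to 0.11 (T-DM1 against T-PNU) and Tuba1b from -0.030 to 0.092 (T-DM1 against trastuzumab).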
